A study of Mus musculus with 2 samples.

Results

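The 35 genes described here encode ATPases and subunits of the SWI/SNF, ISWI and INO80 families of chromatin remodellers, with Atrx, Smarcad1 and Smarcal1 as further SNF2-family ATPases. They were taken by symbol from the gene list of both libraries, and all 35 were found among 26893 named genes. Chromatin remodellers use ATP to slide, evict or exchange nucleosomes. Each works as a complex in which a motor subunit is joined by partners that often come as paralogs, and the paralog a cell uses is known to differ between cell types, as in the switch from progenitor to neuronal SWI/SNF complexes in mouse brain. Chd4, the target of the siRNA, is the motor of a separate remodeller, NuRD. The questions were which paralog each class of cells used, whether any of these genes stood higher where Chd4 was lowered, and whether they varied with Chd4 from cell to cell.

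The libraries came from undifferentiated spermatogonia of adult C57BL/6 mouse testes, selected for the surface protein THY1 and grown in serum-free medium with GDNF and bFGF on SNL76/7 embryonic fibroblasts whose division mitomycin had stopped. The Chd4 siRNA group received 75 pmol of siRNA against Chd4 and the control siRNA group 75 pmol of a non-targeting siRNA, both with 2 µL Lipofectamine on plastic for 24 h. Both groups were otherwise cultured alike. Equal numbers of cells from 3 biological replicates were pooled per group before droplet capture, so each group is 1 library, no difference has a replicate check, and no test across replicates was possible. Intervals are 95% intervals for counting error only.

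The Chd4 siRNA library gave 858 cells with a median of 16149.5 UMIs (unique molecular identifiers, each standing for 1 captured transcript). The control siRNA library gave 816 cells with a median of 15625.5. Both matrices broke off inside a cell, so cell numbers and class shares here are those of the part read. Cells with more Dazl and Ddx4 than Col1a1 and Fn1 UMIs were taken as germ cells, those with the opposite as feeder cells. Germ cells numbered 760 (88.6%) in the Chd4 siRNA library and 728 (89.2%) in the control siRNA library, feeder cells 89 (10.4%) and 79 (9.68%). The other 13 listed germ cell markers were higher in germ cells in both libraries, and 12 of 13 other fibroblast markers higher in feeder cells, with Lum at 0 there. In germ cells, the summed level of the fibroblast markers was 1.27% of their feeder level in the Chd4 siRNA library and 1.44% in the control siRNA library. The germ markers in feeder cells were at 4.08% and 5.18% of their germ level. Markers of other testis cells were summed likewise. The 6 Sertoli markers gave 18.5 CPM in germ cells under Chd4 siRNA and 18.6 under control siRNA, and 266 and 253 CPM in feeder cells. The 4 Leydig markers gave 1.80 and 2.50 CPM in germ cells and 0.554 and 0.315 in feeder cells, with Cyp11a1, Hsd3b1 and Insl3 at 0 throughout. The 5 macrophage markers gave 15.35 and 14.05 CPM in germ cells and 5.54 and 1.26 in feeder cells, with Adgre1 and Tyrobp at 0 throughout. The 4 endothelial markers gave 12.2 and 12.4 CPM in germ cells and 6.65 and 3.15 in feeder cells, and the 2 peritubular myoid markers 0.490 and 0.689 CPM in germ cells and 2.49 and 1.89 in feeder cells. The part of such cells in the results was not tested. Per cell, germ cells had a median of 15581.5 UMIs under Chd4 siRNA and 15282 under control siRNA, and feeder cells, which were deeper, 40805 and 38655. The libraries shared 1 cell barcode among those listed. Levels are CPM, the UMIs of a gene scaled to a fixed total over the class. They are not divided by gene length, because the 3′ chemistry counts a transcript once whatever its length.

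Chd4 itself was lower in both classes of the Chd4 siRNA library. Germ cells held 3098 Chd4 UMIs (253 CPM) under Chd4 siRNA and 6218 (536 CPM) under control siRNA, a log2 ratio of −1.08 (−1.15 to −1.02). Feeder cells held 191 UMIs (52.9 CPM) and 491 (155 CPM), a log2 ratio of −1.55 (−1.80 to −1.30).

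The 35 genes lie on 18 chromosomes, with Smarca1 and Atrx on the X. For 30 of them RefSeq (GRCm38.p6) gave the 250 bases before the gene start. The promoters of the SWI/SNF scaffold paralogs Smarcc1 and Smarcc2 are shown because these genes divide the cell classes, and those of Smarcd1 and Smarcal1 because they stood farthest apart between the libraries among members with at least 200 UMIs in germ cells. Each window was cut where it met an exon in GENCODE, so Smarcc1 has 206 bases, ending 44 bases before the RefSeq start, and Smarcd1 has 92, ending 158 bases before it. GENCODE also has a Smarcc1 transcript that starts farther upstream, at 110117708, so the Smarcc1 window lies in an intron of that transcript. Capitals mark the GC box GGGCGG and the CCAAT box CCAAT, read on either strand. The 4 windows are chr9:110131774-110131979, chr10:128458986-128459235, chr15:99702037-99702128 and chr1:72583001-72583250, all on the plus strand.
Smarcc1: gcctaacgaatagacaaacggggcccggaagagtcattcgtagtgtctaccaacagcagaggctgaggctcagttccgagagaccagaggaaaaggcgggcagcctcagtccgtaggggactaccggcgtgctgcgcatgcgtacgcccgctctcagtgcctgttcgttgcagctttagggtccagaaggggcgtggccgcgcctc
Smarcc2: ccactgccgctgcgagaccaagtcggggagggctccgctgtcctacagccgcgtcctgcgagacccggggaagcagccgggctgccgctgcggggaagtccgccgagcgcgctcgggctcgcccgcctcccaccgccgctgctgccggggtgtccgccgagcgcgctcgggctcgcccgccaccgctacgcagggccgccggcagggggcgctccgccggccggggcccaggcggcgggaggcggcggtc
Smarcd1: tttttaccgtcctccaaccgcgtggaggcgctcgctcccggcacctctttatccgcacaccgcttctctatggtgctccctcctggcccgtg
Smarcal1: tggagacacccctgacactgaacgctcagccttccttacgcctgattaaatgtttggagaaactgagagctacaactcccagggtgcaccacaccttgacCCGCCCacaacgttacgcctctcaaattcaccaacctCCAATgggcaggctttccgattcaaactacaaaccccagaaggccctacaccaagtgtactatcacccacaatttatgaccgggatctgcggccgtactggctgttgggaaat
The windows of Smarcc1, Smarcc2 and Smarcd1 as printed held no match to the 6 motifs searched, and Smarcal1 held a GC box and a CCAAT box. Smarcc1 and Smarcd1 did have a GC box in their full 250 bases, not contained in the part printed. Over the full 250 bases, 24 of 30 members had a GC box (80.0%), against 32.9% of all 27025 promoters and 63.4% of the 6455 promoters of genes measured in germ cells. The CCAAT box was found in 10 members (33.3%), against 34.5% of all promoters and 37.5% of those of measured genes. Of the other motifs, the E-box CACGTG was in 2 members (Bptf and Pbrm1), TATAAA in 2 (Ruvbl1 and Smarcd2), CCGGAAGT in Ino80b alone and TGACGTCA in 0. These letters were found in 6.05%, 13.0%, 2.93% and 1.62% of all promoters, in that order. The members' promoters had a median CpG content of 0.883 of that expected from their bases, against 0.378 over all promoters and 0.779 over those of measured genes, with Smarcd2 lowest at 0.201 and Smarcad1 highest at 1.11. A match is a description of the letters only.

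In the scaffold and ARID pairs of SWI/SNF, germ cells carried mostly 1 paralog and feeder cells a mixture. Smarcc1 (BAF155), the scaffold of the complex, stood at 255 CPM in germ cells of the Chd4 siRNA library and 222 CPM in those of the control siRNA library, against 91.2 and 96.7 CPM in feeder cells. Its paralog Smarcc2 (BAF170) stood the other way, at 9.22 and 10.9 CPM in germ cells against 46.9 and 53.9 CPM in feeder cells. Smarcc1 therefore made up 96.5% (95.8 to 97.1) and 95.3% (94.5 to 96.1) of the pair's UMIs in germ cells, against 66.1% (61.7 to 70.2) and 64.2% (59.7 to 68.5) in feeder cells. The class intervals do not overlap in either library. Cells carrying at least 1 Smarcc2 UMI, each cell thinned to 9000 UMIs, were 6.60% and 8.26% of germ cells against 33.3% and 40.0% of feeder cells; unthinned shares were 14.1% and 15.1% against 79.8% and 82.3%. Germ cells held Smarcc2 at 19.7% and 20.2% of its feeder level, above the 1.27% and 1.44% of the fibroblast markers.

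The ARID subunits that define the canonical BAF complex divided in the same way. Arid1a had 96.7 CPM in germ cells of the Chd4 siRNA library and 89.9 CPM in those of the control siRNA library, against 32.7 and 42.5 CPM in feeder cells. Arid1b had 6.29 and 4.39 CPM in germ cells, against 32.7 and 39.7 CPM in feeder cells, where the paralogs were level. Arid1a held 93.9% (92.4 to 95.2) and 95.3% (93.9 to 96.5) of the pair in germ cells and 50% (43.4 to 56.6) and 51.7% (45.5 to 57.9) in feeder cells. Germ cells held Arid1b at 19.2% and 11.1% of its feeder level. Arid2, the ARID subunit of PBAF, was 18.9% and 19.4% of the 3 ARID genes in germ cells, against 33.3% and 28.9% in feeder cells. Its PBAF partner Pbrm1, a protein of several bromodomains, was far more abundant, at 189 and 181 CPM in germ cells and 116 and 114 CPM in feeder cells.

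**Figure D1:**
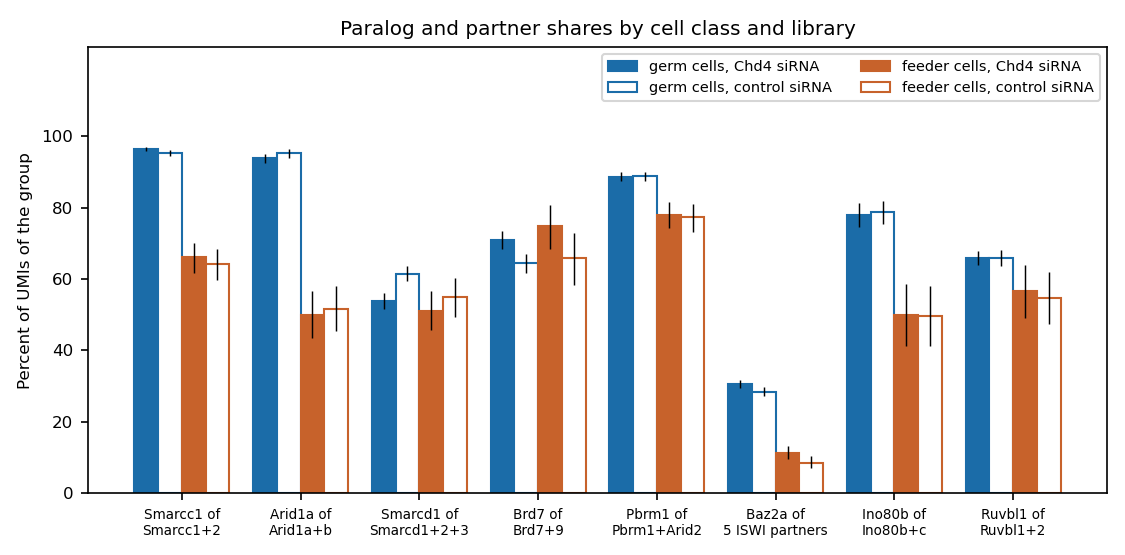
Share of UMIs taken by the first-named gene within its group, in percent, for germ cells (blue) and feeder cells (orange) of the Chd4 siRNA (filled) and control siRNA (open) libraries; lines are 95% binomial intervals for counting error. Smarcc1 and Arid1a hold 93.9% to 96.5% of their pairs in germ cells and 50% to 66.1% in feeder cells, and Smarcd1 is lower under Chd4 siRNA in germ cells.

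The remaining SWI/SNF subunits followed 3 patterns. The motor Smarca4 (BRG1) was at 176 and 173 CPM in germ cells and 86.8 and 89.1 CPM in feeder cells. The core subunit Smarcb1 was at 87.4 and 77.1 CPM against 23.3 and 29.9 CPM. Smarca2, the paralog of Smarca4, and Dpf2, a paralog of Dpf1 and Dpf3, were not among the named genes. Rows past the end of the gene list could not be searched for them. The choice of paralog could therefore not be told for the motor or the Dpf subunits. The DNA-binding subunit Smarce1 was nearly level between the classes, with 93.4 and 84.4 CPM in germ cells and 85.9 and 77.5 CPM in feeder cells. Brd7, a PBAF subunit, and Brd9, which marks the non-canonical complex, were both higher in germ cells, Brd7 at 78.9 and 68.8 CPM and Brd9 at 32.2 and 37.9 CPM, against 42.4 and 36.5 CPM and 14.1 and 18.9 CPM in feeder cells. Actl6b, Dpf3 and Dpf1, which are among the subunits known from mouse neurons, were scarce or at a low level. Actl6b, the neuronal counterpart of Actl6a, had 12 UMIs in germ cells under Chd4 siRNA and 5 under control siRNA, and 0 in feeder cells of both libraries, where 3 UMIs would be 0.832 and 0.945 CPM. Actl6a took 99.2% and 99.6% of the pair in germ cells. Dpf3 had 8 and 4 UMIs in germ cells and 2 and 0 in feeder cells. Dpf1 was the most abundant of these, at 16.6 and 19.2 CPM in germ cells (203 and 223 UMIs) against 3.60 and 4.10 CPM in feeder cells (13 UMIs each), a level 4.60 and 4.69 times higher in germ cells.

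Among ISWI genes, Smarca5 (SNF2H) was the motor of both classes. It had 242 and 272 CPM in germ cells of the Chd4 siRNA and control siRNA libraries, against 81.2 and 85.1 CPM in feeder cells. Its paralog Smarca1 (SNF2L) had 38 and 13 UMIs in germ cells and 3 and 0 in feeder cells. Among the 5 partner genes of ISWI motors, Baz2a, the large subunit of the nucleolar complex NoRC, took 30.6% (29.5 to 31.8) and 28.5% (27.3 to 29.7) of UMIs in germ cells, against 11.3% (9.64 to 13.2) and 8.62% (6.98 to 10.5) in feeder cells. Baz1a (ACF1) ran the other way, with 3.79% and 3.36% in germ cells against 8.43% and 8.71% in feeder cells. Baz1b (WSTF) held 26.0% (24.9 to 27.1) and 29.2% (28.0 to 30.4) in germ cells. Its share was higher in feeder cells in both libraries, at 33.9% (31.3 to 36.5) and 36.4% (33.5 to 39.4). Bptf, the large subunit of NURF, held 30.4% (29.3 to 31.6) and 29.9% (28.7 to 31.1) in germ cells. In feeder cells Bptf held 33.2% (30.6 to 35.8) and 36.2% (33.3 to 39.2), with class intervals apart under control siRNA alone. Rsf1 held 9.18% and 9.07% in germ cells and 13.2% and 10.1% in feeder cells.

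Ep400 was the most abundant of the INO80-family motors in both classes. This gene, the motor of the TIP60 complex, held 77.6% and 77.7% of UMIs of the family's 3 motors in germ cells and 78.6% and 76.1% in feeder cells, so its share did not separate the classes beyond counting error. The other motors kept no common order. Srcap took 12.5% and 11.1% in germ cells against 6.87% and 8.73% in feeder cells, and Ino80 took 9.98% and 11.2% in germ cells against 14.5% and 15.2% in feeder cells. Srcap, which exchanges H2A.Z into nucleosomes, stood at 23.3 and 19.7 CPM in germ cells and 7.48 and 9.77 CPM in feeder cells, and Ino80, the motor of its own complex, had 229 and 232 UMIs in germ cells and 57 and 54 in feeder cells. The ring-forming ATPases that these complexes share were higher in germ cells, Ruvbl1 at 130.3 and 112 CPM against 28.3 and 32.8 CPM and Ruvbl2 at 67.4 and 57.9 CPM against 21.6 and 27.1 CPM. Of the small INO80 subunits, Ino80b was higher in germ cells (41.0 and 44.1 CPM, against 18.9 and 23.0 CPM in feeder cells) and Ino80c lower (11.5 and 11.9 CPM, against 18.9 and 23.3 CPM). Ino80b took 78.1% and 78.8% of this pair in germ cells, against 50% and 49.7% in feeder cells. Of the 3 further ATPases, Smarcad1, which acts in heterochromatin upkeep, was lower in germ cells, at a log2 ratio of germ over feeder cells of −0.81 in the Chd4 siRNA library and −0.80 in the control siRNA library. Atrx, which deposits H3.3 with Daxx, was at 158 and 137 CPM against 134 and 117 CPM. Smarcal1, an annealing helicase of stalled replication forks, was at 15.3 and 11.9 CPM against 2.77 and 5.67 CPM.

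**Figure D2:**
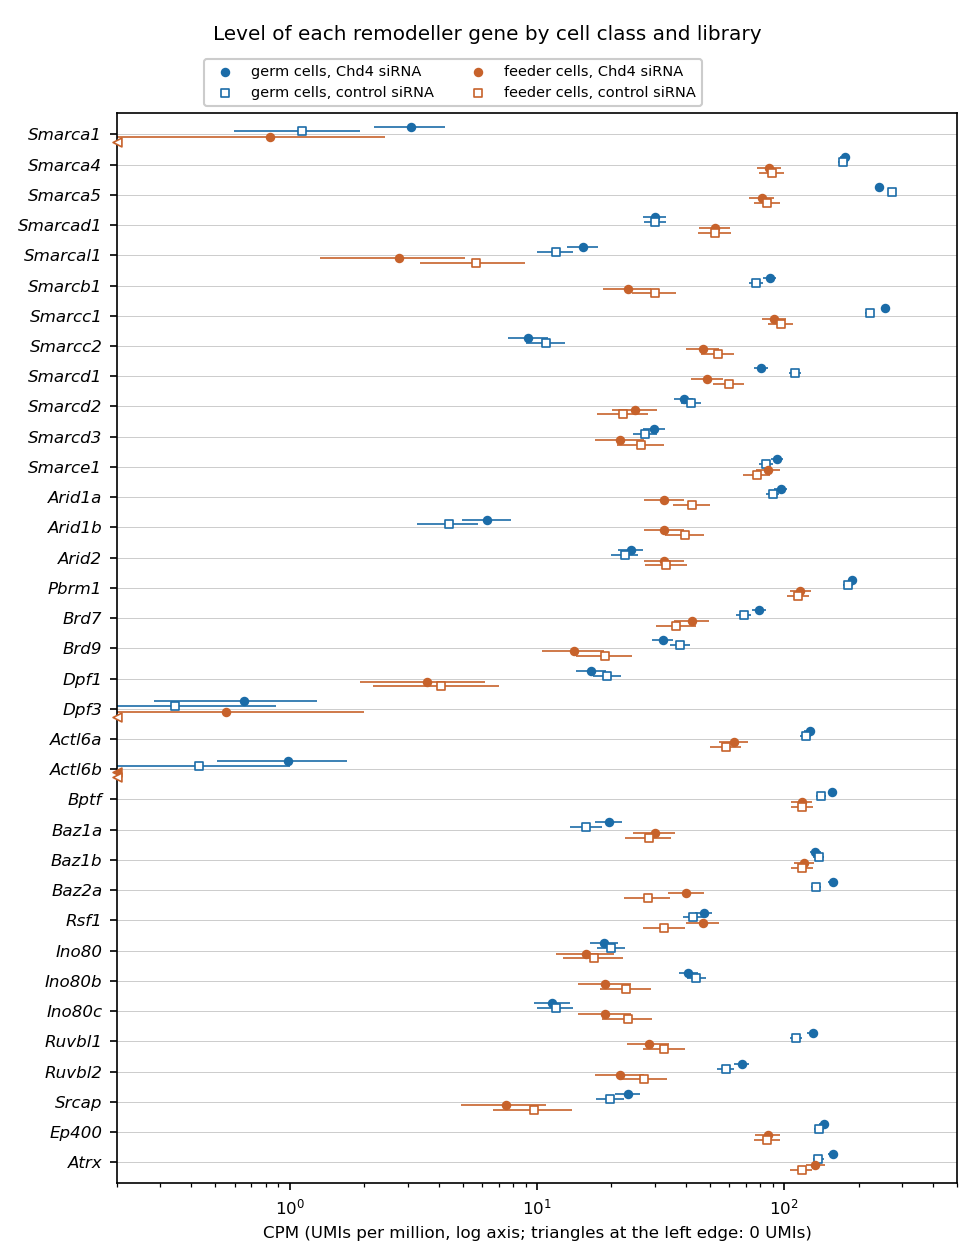
CPM of each gene on a log axis, in germ cells (blue) and feeder cells (orange) of the Chd4 siRNA (filled) and control siRNA (open) libraries; lines are 95% Poisson intervals for counting error and triangles mark 0 UMIs. Smarcc2 and Arid1b lie at 11.1% to 20.2% of their feeder level in germ cells, and most other genes lie higher in germ cells. Over all genes measured, the median log2 ratio of germ over feeder cells was also above 0, at 0.45 and 0.38.

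Counted over the list, 32 members had at least 200 UMIs over both classes and libraries. A log2 ratio of germ over feeder cells of at least 1 in both libraries was met by 12 members, against 30.4% of the 9277 genes measured, and a ratio of at most −1 by 2, Smarcc2 and Arid1b, against 16.7%. The 12 were Smarca5, Smarcal1, Smarcb1, Smarcc1, Arid1a, Brd9, Dpf1, Actl6a, Baz2a, Ruvbl1, Ruvbl2 and Srcap. The members' median ratio was 0.74 in the Chd4 siRNA library and 0.90 in the control siRNA library, against 0.45 and 0.38 over all genes. Scaling moved this count. With TMM factors the median of all genes was 0.22 and 0.20, and 6 members (Smarca5, Smarcb1, Smarcc1, Dpf1, Baz2a and Ruvbl1) were higher, against 26.1% of genes. With DESeq2 size factors those medians were 0.18 and 0.15 and 5 members were higher, against 25.1%. Smarcc2 and Arid1b were lower by at least 1 under each scaling, and DESeq2 added Smarcad1. The 12 members' share is near that of all genes, whereas the paralog shares above do not depend on scaling.

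Under Chd4 siRNA no broad shift of the remodeller genes was seen in germ cells. A minimum of 200 UMIs over both libraries was met by 31 members. Their log2 ratios of Chd4 siRNA over control siRNA had a median of 0.08 and ran from −0.46 to 0.37, against a median of 0.05 over 8257 genes; under other scalings the members' median lay between 0.03 and 0.06. At least 0.3 higher was 1 member, Smarcal1, against 5.92% of genes, and at least 0.3 lower 1 member, Smarcd1, against 4.37%. With TMM factors the same number of members lay past these limits, against 3.65% of genes higher and 6.06% lower. Just inside the limit stood Baz1a, at 0.299. It ranged from 0.23 to 0.71 over 14 alternatives, with 0.71 in G1, 0.69 in S and 0.23 in G2M cells. Summed over the 35 genes, germ cells held 33597 UMIs (2742 CPM) under Chd4 siRNA and 30445 (2623 CPM) under control siRNA, a log2 ratio of 0.06 (0.04 to 0.09), near the median of all genes. The 4 members under the minimum were Smarca1, Arid1b, Dpf3 and Actl6b.

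Smarcd1 (BAF60a), a subunit that links SWI/SNF complexes to transcription factors, was the farthest from 0 of the 31 members at the minimum. Germ cells held 986 Smarcd1 UMIs (80.5 CPM, 75.5 to 85.7) under Chd4 siRNA, against 1287 (111 CPM, 105 to 117) under control siRNA, a log2 ratio of −0.46 (−0.58 to −0.34). At equal depth 50.2% (46.4 to 54.0) of germ cells carried a Smarcd1 UMI under Chd4 siRNA, against 62.2% (58.4 to 65.9) under control siRNA; unthinned, the shares were 68.6% and 76.2%. Feeder cells gave 48.8 CPM (176 UMIs) and 59.5 CPM (189 UMIs), a log2 ratio of −0.29 (−0.59 to 0.02) that does not exclude 0. Smarcd1 was lower in each called cell cycle phase of germ cells, with log2 ratios of −0.42 in G1, −0.68 in S and −0.43 in G2M. Its paralogs stood differently. Smarcd2 had 39.2 CPM under Chd4 siRNA and 42.0 CPM under control siRNA (log2 −0.10, −0.28 to 0.09), and Smarcd3 29.7 and 27.4 CPM (log2 0.12, −0.10 to 0.34). Smarcd1 thus made up 53.9% (51.6 to 56.2) of the 3 paralogs in germ cells under Chd4 siRNA, against 61.5% (59.4 to 63.6) under control siRNA, while Smarcd3 made up 19.9% (18.1 to 21.8) and 15.2% (13.7 to 16.8). Smarcd1 (ENSMUSG00000023018; GRCm38 chromosome 15, 99702129 to 99713991) overlaps exons of Gm17349 and Gm34939 on the opposite strand; no source used here says whether counting was strand-specific.

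Smarcal1 (ENSMUSG00000039354; chromosome 1, 72583251 to 72633134) had 188 UMIs (15.3 CPM) in germ cells under Chd4 siRNA and 138 (11.9 CPM) under control siRNA, a log2 ratio of 0.37 (0.04 to 0.70). Its interval comes close to 0, and the ratio was 0.28 in G1, 0.82 in S and 0.12 in G2M cells. In feeder cells it had 10 and 18 UMIs, too few to place.

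**Figure D3:**
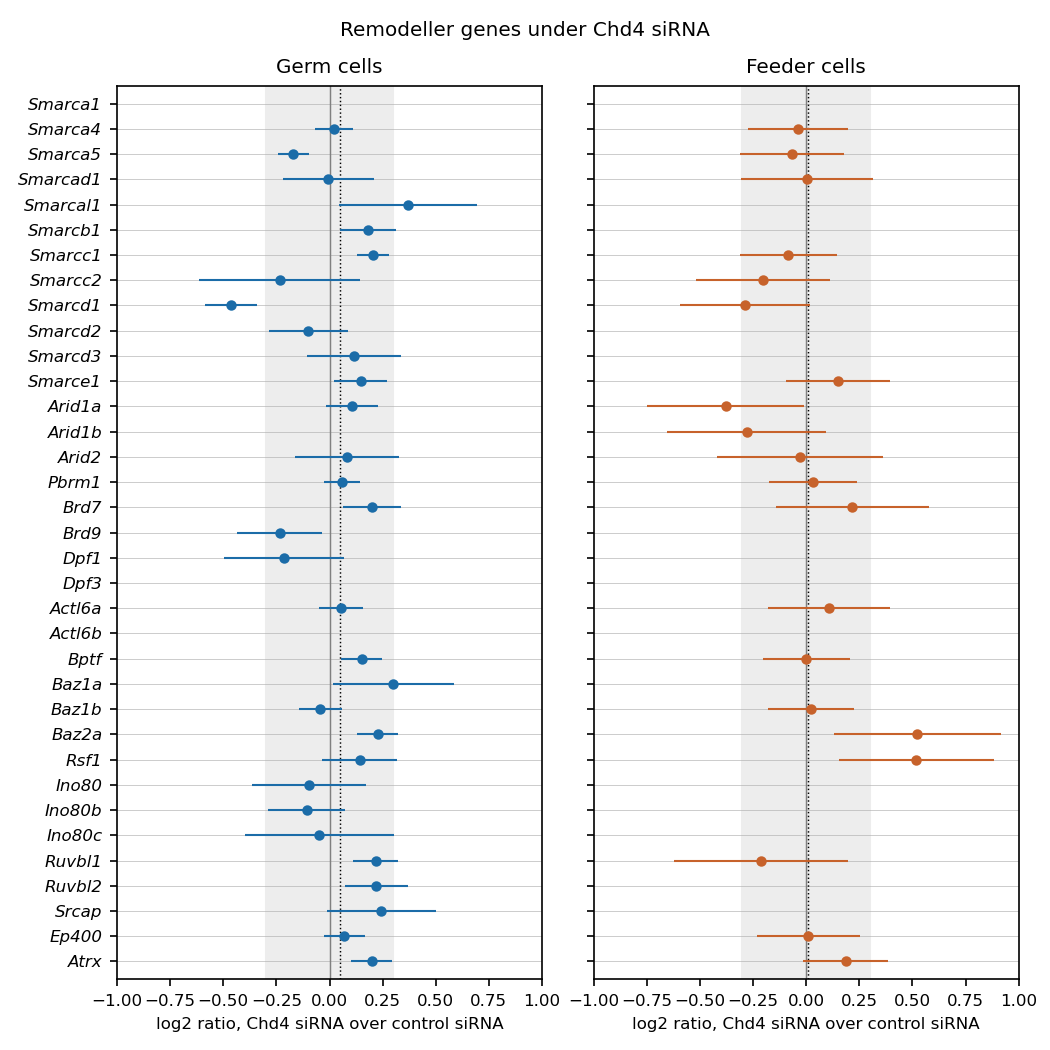
log2 ratio of Chd4 siRNA over control siRNA for each gene with at least 200 UMIs, in germ cells (left) and feeder cells (right), with 95% counting intervals; the grey band spans −0.3 to 0.3 and the dotted line is the median of all genes. In germ cells Smarcd1 at −0.46 and Smarcal1 at 0.37 lie outside the band; in feeder cells Baz2a, Rsf1 and Arid1a do.

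Several abundant genes differed by small amounts that exceeded counting error. The counting interval lay above 0 for 11 of 31 members, against 19.0% of genes, and below 0 for 3, against 8.43%. Deeply counted genes reach this more readily, and the members were not matched to other genes on depth. The intervals do not cover scaling. The median of all genes was 0.05 here and 0.003 with TMM factors. The lower bounds of Baz1a, Smarce1 and Smarcal1, at 0.016, 0.022 and 0.043, were under that 0.05. Highest by the bound nearest to 0, among members at the minimum, was Baz2a, with 1930 UMIs (158 CPM) under Chd4 siRNA and 1562 (135 CPM) under control siRNA, a log2 ratio of 0.23 (0.13 to 0.32). Smarcc1 came next, with 3125 UMIs (255 CPM) and 2572 (222 CPM), a log2 ratio of 0.20 (0.13 to 0.28). Ruvbl1 had 1596 UMIs and 1300, a log2 ratio of 0.22 (0.11 to 0.32), and its partner Ruvbl2 the same ratio of 0.22 (0.07 to 0.37), so that Ruvbl1 held 65.9% of the pair in both libraries. In S-phase cells alone the Ruvbl2 ratio was below 0, at −0.004. Atrx had 1930 UMIs (158 CPM) and 1594 (137 CPM), a log2 ratio of 0.20 (0.10 to 0.29). Lower were Smarca5, with 2967 UMIs (242 CPM) under Chd4 siRNA and 3162 (272 CPM) under control siRNA, at −0.17 (−0.24 to −0.10), and Brd9, with 395 UMIs and 440, at −0.23 (−0.43 to −0.03). Brd9 and Brd7 stood in opposite directions: Brd7 had 967 UMIs and 798, at 0.20 (0.06 to 0.34), so that Brd7 took 71.0% (68.5 to 73.4) of the pair under Chd4 siRNA and 64.5% (61.7 to 67.1) under control siRNA. The other members with an interval above 0 besides Smarcal1 were Smarcb1 at 0.18 (0.05 to 0.31), Smarce1 at 0.15 (0.02 to 0.27), Bptf at 0.15 (0.06 to 0.25) and Baz1a at 0.30 (0.02 to 0.58). Whether replicates differ by as much is not known from 1 library per group.

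The scarce paralogs remained a small part of their pairs in germ cells of both libraries. Smarcc2 had 113 UMIs in germ cells under Chd4 siRNA and 126 under control siRNA (log2 −0.24, −0.61 to 0.14). Arid1b had 77 and 51 UMIs (log2 0.52, −0.01 to 1.06), an interval that takes in 0. Smarca1 had 38 UMIs in 33 germ cells under Chd4 siRNA and 13 UMIs in 12 germ cells under control siRNA, or 3.10 and 1.12 CPM (log2 1.47, 0.53 to 2.50). At equal depth 2.44% and 0.601% of germ cells carried a Smarca1 UMI, against 0 of 84 and 0 of 75 feeder cells. Smarca5 held 98.7% (98.3 to 99.1) of ISWI motor UMIs under Chd4 siRNA and 99.6% (99.3 to 99.8) under control siRNA. The members not yet named for germ cells, Smarca4, Smarcad1, Arid1a, Arid2, Pbrm1, Dpf1, Actl6a, Baz1b, Rsf1, Ino80, Ino80b, Ino80c, Srcap and Ep400, had ratios from −0.21 (Dpf1) to 0.24 (Srcap) with intervals that take in 0.

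In feeder cells 20 members had at least 200 UMIs, and their median log2 ratio of 0.00 was near that of all 4249 genes, 0.01. At least 0.3 higher were 2 members, against 11.6% of genes, and lower 1 member, against 12.8%. Baz2a had 145 UMIs (40.2 CPM) under Chd4 siRNA and 89 (28.0 CPM) under control siRNA, a log2 ratio of 0.52 (0.13 to 0.92). Thinning cells to 9000 UMIs left it at 0.09. Rsf1, the histone-binding partner of Smarca5 in the RSF complex, had 169 UMIs (46.9 CPM) and 104 (32.8 CPM), also 0.52 (0.16 to 0.88), and ranged from 0.50 to 0.67 over 10 alternatives. Arid1a had 118 UMIs (32.7 CPM) and 135 (42.5 CPM), a log2 ratio of −0.38 (−0.75 to −0.01), and −0.21 as a mean of per-cell CPM. The summed level of the 35 genes was 1589 CPM in feeder cells under Chd4 siRNA and 1606 CPM under control siRNA, a log2 ratio of −0.02 (−0.07 to 0.04).

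Other remodeller genes gave a background for the members. In germ cells, 6 other SWI/SNF subunits at the minimum had a median ratio of −0.03 with 0 past 0.3 either way; Bcl7b stood highest, at 73.5 CPM under Chd4 siRNA and 61.0 CPM under control siRNA (log2 0.27, 0.13 to 0.41). The 6 other ISWI partners had a median of 0.04 with 0 past 0.3. Of 21 other INO80, SRCAP and TIP60 subunits, with a median of 0.04, 1 was lower, the DNA-binding INO80 subunit Yy1, at 22.9 and 29.0 CPM (log2 −0.34, −0.57 to −0.10). Of 9 other SNF2-family genes, with a median of 0.13, 2 were higher. These were Daxx, the histone chaperone that works with Atrx, at 38.3 and 29.8 CPM (log2 0.36, 0.16 to 0.57), and the mitotic helicase Ercc6l, with 196 and 139 UMIs (log2 0.42, 0.10 to 0.74). Among the 9 CHD ATPases, the family of the siRNA target, Chd4 and its close paralog Chd3 were lower. Chd3 was at 49.0 CPM in germ cells under Chd4 siRNA and 64.0 CPM under control siRNA (log2 −0.39, −0.54 to −0.23), and at 18.6 and 80.3 CPM in feeder cells (log2 −2.11, −2.52 to −1.72). Chd5, known as the paralog of neurons and testis in mice, was higher in germ cells, with 151 and 98 UMIs (log2 0.55, 0.17 to 0.93). No member of the 35 at the minimum came as far from 0 in germ cells.

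From cell to cell, the members followed Chd4 only weakly. Over 697 germ cells of the Chd4 siRNA library and 666 of the control siRNA library, each thinned to 9000 UMIs, the median Spearman correlation of 31 members with Chd4 was 0.029 and 0.017, against 0.014 and 0.015 over all genes. The central 90% of genes ran from −0.063 to 0.091 in the Chd4 siRNA library and from −0.066 to 0.100 in the control siRNA library. All points share a library and its counting noise, and such values in sparse counts are descriptions. Smarcc1 was the 1 member above the 95th percentile of all genes in both libraries, at 0.096 and 0.142. It was not so under other settings: thinned to 5000 UMIs it had 0.003 and 0.071, below the 95th percentiles of 0.077 and 0.078, and as a Pearson correlation of unthinned cells 0.065 under Chd4 siRNA, below 0.101. Baz2a (0.136) and Baz1b (0.130) were highest under Chd4 siRNA and were at 0.030 and 0.057 under control siRNA; thinned to 5000 UMIs they had 0.052 and 0.020 under Chd4 siRNA. Smarcad1 stood at 0.100 under Chd4 siRNA and −0.037 under control siRNA, and Bptf at 0.023 and −0.084. Smarcd1, the member lowest under Chd4 siRNA, had 0.057 and 0.007.

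Splitting the same cells by their own thinned Chd4 count gave the levels behind these values. Under Chd4 siRNA 303 cells had 0 or 1 Chd4 UMI, 241 had 2 or 3 and 153 had 4 or more, and the members' summed level was 2642 CPM (2581 to 2704), 2772 CPM (2703 to 2843) and 2925 CPM (2836 to 3017) in that order. Under control siRNA the groups held 78, 185 and 403 cells, and the summed level was 2423 CPM (2309 to 2541), 2652 CPM (2574 to 2731) and 2649 CPM (2596 to 2702). The summed level was thus lowest in the cells with least Chd4 in both libraries. The median member was 0.13 higher (log2) at 4 or more than at 0 or 1 Chd4 UMI under Chd4 siRNA and 0.11 higher under control siRNA, against 0.08 and 0.09 over all genes. Smarcc1 had 243, 260.0 and 295 CPM over the 3 groups under Chd4 siRNA and 199, 208 and 240.1 CPM under control siRNA. Smarcd1 had 70.8, 89.9 and 82.8 CPM under Chd4 siRNA and 105, 116 and 117 CPM under control siRNA, so that each Chd4 siRNA group lay below each control group, although their counting intervals overlap in part. Members varied little beyond counting. Their median variance over mean was 1.11 under Chd4 siRNA and 1.09 under control siRNA, against 1.08 and 1.07 over all genes and 2.16 and 2.11 for Chd4, with Atrx highest at 1.27 and 1.29.

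**Figure D4:**
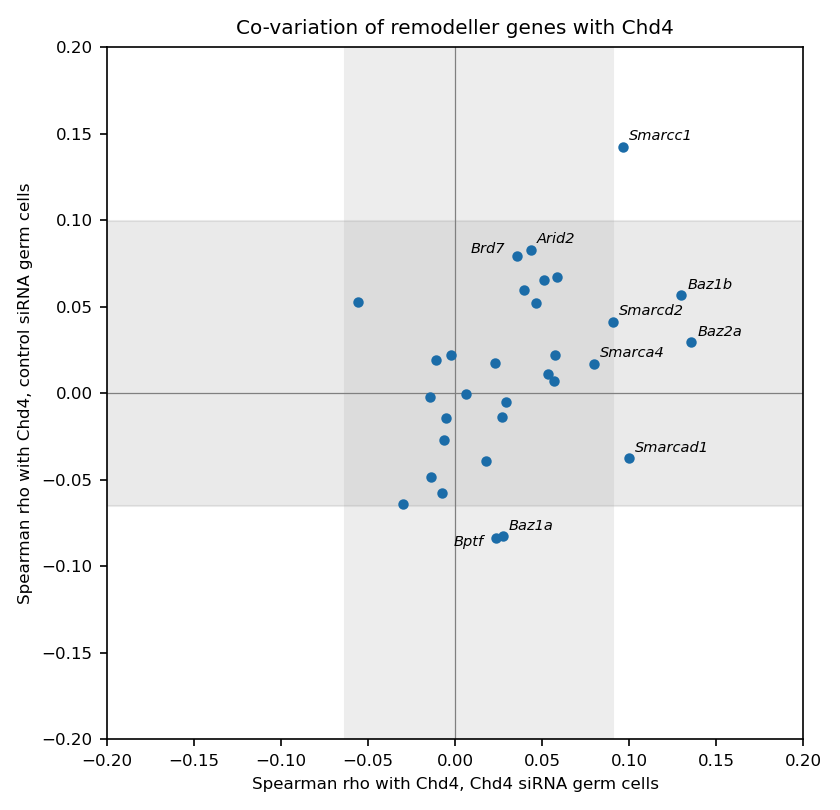
Spearman correlation of each gene with Chd4 across thinned germ cells, in the Chd4 siRNA library (x axis, 697 cells) and the control siRNA library (y axis, 666 cells); bands span the 5th to 95th percentile of all genes. Smarcc1 lies beyond both bands, at 0.096 and 0.142, but not when cells are thinned to 5000 UMIs (0.003 and 0.071), and most genes lie within both.

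Across called cell cycle phases Baz1a, which works with Smarca5 in ACF and CHRAC and is known from replication of heterochromatin in mouse cells, varied most. It had 14.9, 21.5 and 29.4 CPM in G1, S and G2M cells under Chd4 siRNA and 9.15, 13.3 and 25.1 CPM under control siRNA. The log2 ratio of G2M over G1 was 0.98 (0.31 to 1.65) and 1.46 (0.65 to 2.30). Actl6a had the same order of phases, with 106, 123 and 135 CPM under Chd4 siRNA and 101, 127 and 144 CPM under control siRNA. Baz1b had 119, 142 and 133 CPM under Chd4 siRNA and 111, 151 and 157 CPM under control siRNA. A ratio of G2M over G1 of at least 0.5 in size was met by 3 of 31 members under Chd4 siRNA, against 20.2% of genes, and by 6 of 31 under control siRNA, against 21.8%. Baz1a was the only member past 0.5 in both libraries. Phases were called from expression, cells in each were 283, 259 and 155 under Chd4 siRNA and 255, 243 and 168 under control siRNA, and none of the members was used to call them.

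**Figure D5:**
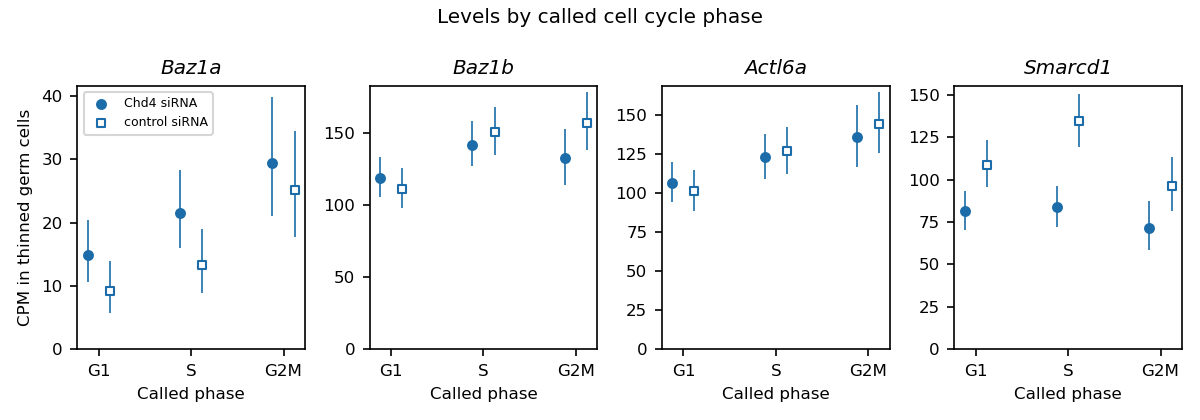
CPM of 4 genes in germ cells thinned to 9000 UMIs, by called phase, under Chd4 siRNA (filled) and control siRNA (open), with 95% Poisson intervals for counting error. Baz1a is highest in G2M in both libraries, at 29.4 and 25.1 CPM, and Smarcd1 is lower under Chd4 siRNA in each phase.

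Some counts are uncertain because of neighbouring or copied sequence. Smarca5 and Smarce1 have annotated pseudogenes, and Baz1a and Srcap overlap another annotated coding gene on their own strand. Exons of Smarcc1 overlap Dhx30, those of Pbrm1 overlap Gnl3, those of Actl6a overlap Mrpl47, those of Ruvbl2 overlap Gys1 and those of Smarcd3 overlap Chpf2, all on the opposite strand. With the measured genes split into 5 equal bins by transcript length, 16 of 31 members lay in the longest bin. The median log2 ratio of Chd4 siRNA over control siRNA over all genes in germ cells was between 0.03 and 0.08 in each bin, and 0.06 in the one that holds Smarcd1.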

How the data were processed

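Raw counts of UMIs per gene and cell were used as deposited by the authors, 1 matrix per library; per the submitters' processing notes mm10 was the build and the software was Seurat and Cell Ranger 2.1.0, with no role stated, and how cells were called was not stated there. The libraries were made with 10x v2 chemistry, per the labels' protocols. Each matrix as read ended inside a cell, which was left out, and any cells after it were not read. The gene list was held in part and named the first 26893 of 27998 matrix rows. The other 1105 rows are genes whose names could not be read. They held 12.6% of UMIs in the Chd4 siRNA library and 12.1% in the control siRNA library and were left out of totals. Cells under 1000 UMIs (2 and 0) were removed. Scrublet marked 6 and 8 cells as doublets, which were kept.

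Counts were summed over the cells of a class and library (germ 12251236 and 11605456 UMIs, feeder 3607230 and 3174545) and given as CPM with exact Poisson intervals; shares have exact binomial (Clopper-Pearson) intervals, at 95%. With 1 library per group no p-value was computed. A member is called different at a log2 ratio of at least 0.3 in size between libraries, or 1 between classes in both libraries, with at least 200 UMIs. Correlations, phases (scanpy, from 40 S and 52 G2M genes) and shares of cells used cells thinned to 9000 UMIs, which left out 63 and 62 germ cells and 5 and 4 feeder cells as too shallow. All members are named. Counts and intervals between libraries are given for called members, for up to 4 members highest and 4 lowest in germ cells by the interval bound nearest to 0, and for described paralogs; up to 4 genes per list of other remodellers were named by the same bound. Members and lists were chosen with earlier results of these data known. Scripts were tested on simulated data. Python 3.11.15, scanpy 1.11.5, scipy 1.17.1, edgeR 4.0.16 (TMM) and DESeq2 1.42.0 (size factors) were used, edgeR and DESeq2 only for alternative scalings. Other alternatives changed the split of cells, the minimum count, depth, phase and doublets.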

Additional observations from a re-analysis of the deposited data

How the results depend on the processing

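Under 17 settings in all, 635 of 678 alternative values of single members and of Chd4 moved by less than their counting interval, and 43 moved more. The sign turned in 46 of the 678, spread over 25 of 53 gene and class pairs, a total that includes Chd4 in both classes. Chd4 kept its sign throughout. The G1, S and G2M settings held 12, 13 and 11 of the 43 values that moved more. In germ cells Smarcc2 ran from −1.14 in S cells (15 and 31 UMIs) to 0.75 in G2M cells (14 and 9). Srcap ran from −0.23 in S cells (49 and 54 UMIs) to 1.12 in G2M cells (38 and 19). Each pair of counts is under Chd4 siRNA and control siRNA. The members past 0.3 in germ cells (Smarcd1 and Smarcal1) and in feeder cells (Baz2a, Rsf1 and Arid1a) kept their sign. Paralog shares were recomputed only with the stricter split of cells and as means of per-cell CPM. All 216 such values stayed within their intervals. Smarcd1 in germ cells ranged from −0.68 to −0.42 over 15 alternatives and Smarcal1 from 0.12 to 0.82 over 14. The count of members higher in germ than feeder cells was 12, and 6 with TMM or 5 with DESeq2 factors (26.1% and 25.1% of genes). Among members with at least 1000 UMIs 0 were lower (11.3% of genes), against 2. Of members higher under Chd4 siRNA in germ cells there was 1, but 2 as mean per-cell CPM (6.84% of genes), in cells over 5000 UMIs (5.87%) or thinned to 9000 UMIs (8.49%). There were 3 with a minimum of 20 UMIs (13.0% of genes), 0 with 1000 (1.98%), and 4, 4 and 5 in G1, S and G2M cells (16.6%, 15.3% and 20.2% of genes). Of members lower there was 1, but 3 thinned (6.38% of genes), 5 in G1 (11.9%) and 3 in S cells (12.4%). In feeder cells 1 was lower, but 3 as mean per-cell CPM (12.1% of genes), 7 thinned (20.005%), 7 with 20 UMIs (23.2%) and 0 with 1000 (11.8%). In the same cells 2 were higher, but 3 as mean per-cell CPM (18.8% of genes), 1 thinned (21.1%) and 0 with 1000 (9.20%). No paired analysis was possible because each group is 1 library. Depth limits Smarca1, Arid1b, Dpf3 and Actl6b in germ cells and 15 members in feeder cells.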
